A study of Mus musculus with 6 samples.

Results

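The MAPK feedback genes described here are 6 dual-specificity phosphatase genes (Dusp1, Dusp4, Dusp5, Dusp6, Dusp8 and Dusp10), 3 sprouty genes (Spry1, Spry2 and Spry4) and Spred1. They were chosen by gene symbol, and all 10 were found among the 17933 genes of the deposited expression table. RNA was measured in whole kidney of wild-type male C57BL/6 mice, 6 to 8 weeks old, at day 12. The stone group (3 samples) received glyoxylic acid, an oxalate precursor, at 120 mg/kg by daily intraperitoneal injection, which deposits calcium oxalate crystals in the kidney, and the control group (3 samples) received the same volume of saline. The labels do not say that each sample came from a separate mouse, so the p-values reflect the scatter of these samples alone, and that scatter may be technical. The values are FPKM, fragments scaled by transcript length and library total, so levels can be set side by side between genes.

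Mitogen-activated protein kinases carry signals from growth factor receptors and cell stress into the nucleus, and they switch on their own inhibitors. Dual-specificity phosphatases remove phosphate from both the threonine and the tyrosine that activate a MAP kinase. DUSP1, DUSP4 and DUSP5 are inducible nuclear enzymes, DUSP6 is a cytoplasmic enzyme selective for ERK, and DUSP8 and DUSP10 act on JNK and p38. Sproutys and SPREDs work upstream, between receptor tyrosine kinases and RAF, and in the developing kidney Spry1 restrains signalling by the GDNF receptor RET and so limits branching of the ureteric bud.

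Promoter windows (250 bases before and 50 after the start, RefSeq, GRCm38.p6) were at hand for 8 of the 10 genes, all but Dusp4 and Spry4. They were searched on both strands for a cAMP response element (TGACGTCA), an AP-1 site (TGANTCA), an ETS site (CCGGAAGT) and the CArG box bound by serum response factor. None of these motifs overlapped another kind. The cAMP response element was in 2 of the 8 windows, Dusp1 and Dusp8, against 1.79% of all 32851 windows. The CArG box was in that of Dusp5, against 1.63% of all windows, and 0 of the 8 held an AP-1 or ETS match, against 7.81% and 3.89%. The 3 windows with a match are shown because Dusp8 and Dusp5 had the largest differences between groups among the phosphatases and Dusp1 the widest range among controls. Capitals mark the cAMP response element in Dusp1 (chr17:26508423-26508722, minus strand) and Dusp8 (chr7:142095235-142095534, minus strand, 2 matches), and 2 adjoining CArG boxes in Dusp5 (chr19:53528895-53529194, plus strand).
Dusp1: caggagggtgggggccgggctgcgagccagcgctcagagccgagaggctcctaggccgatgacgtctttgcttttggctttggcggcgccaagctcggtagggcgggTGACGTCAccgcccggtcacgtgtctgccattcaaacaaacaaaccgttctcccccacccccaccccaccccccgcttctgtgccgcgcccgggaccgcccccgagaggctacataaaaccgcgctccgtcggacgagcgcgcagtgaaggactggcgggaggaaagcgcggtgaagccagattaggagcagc
Dusp8: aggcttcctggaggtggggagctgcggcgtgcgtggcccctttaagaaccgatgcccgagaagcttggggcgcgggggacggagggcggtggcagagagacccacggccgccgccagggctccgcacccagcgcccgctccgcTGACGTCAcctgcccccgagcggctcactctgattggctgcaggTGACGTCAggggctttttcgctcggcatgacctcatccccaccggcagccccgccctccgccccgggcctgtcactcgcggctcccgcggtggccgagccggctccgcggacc
Dusp5: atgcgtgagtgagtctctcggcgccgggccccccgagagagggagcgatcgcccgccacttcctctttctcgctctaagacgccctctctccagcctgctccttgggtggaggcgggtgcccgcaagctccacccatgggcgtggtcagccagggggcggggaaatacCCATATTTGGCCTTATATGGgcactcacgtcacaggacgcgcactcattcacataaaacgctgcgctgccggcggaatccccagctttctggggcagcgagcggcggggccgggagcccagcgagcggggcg
The matches begin 143 bases before the start used for the window in Dusp1, 107 and 63 bases before it in Dusp8, and 82 and 72 bases before it in Dusp5. The Dusp8 window lies wholly inside the span given for the gene, 142079487 to 142095907. Its start is therefore not the outermost start of Dusp8, and both matches lie downstream of that outer end. A match describes the letters of the window and does not show that a factor binds there.

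Stone kidneys held more Dusp8, Spry1, Spred1, Spry2 and Dusp5 RNA than control kidneys, and the other feedback genes did not pass the test. In whole tissue, more cells of a type and more RNA per cell cannot be told apart, and neither can fewer cells and less RNA per cell. Dusp8 had the largest difference, 6.46-fold between mean FPKM, followed by Dusp5 (2.37-fold) and Spry1 (2.20-fold). Dusp1, the most abundant of the 10, varied 8.47-fold among control samples. Of the 10 genes 9 reached a mean of 1 FPKM and were tested, all but Dusp10, and 5 rose and 0 fell (limma on log2(FPKM + 1), Benjamini-Hochberg adjusted p below 0.05). Of all 12319 tested genes, 43.5% were called higher and 13.9% lower, so 5 of 9 is near the background. The median difference of the 9 was 0.45 on the log2 scale, against 0.21 for all tested genes.

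**Figure D1:**
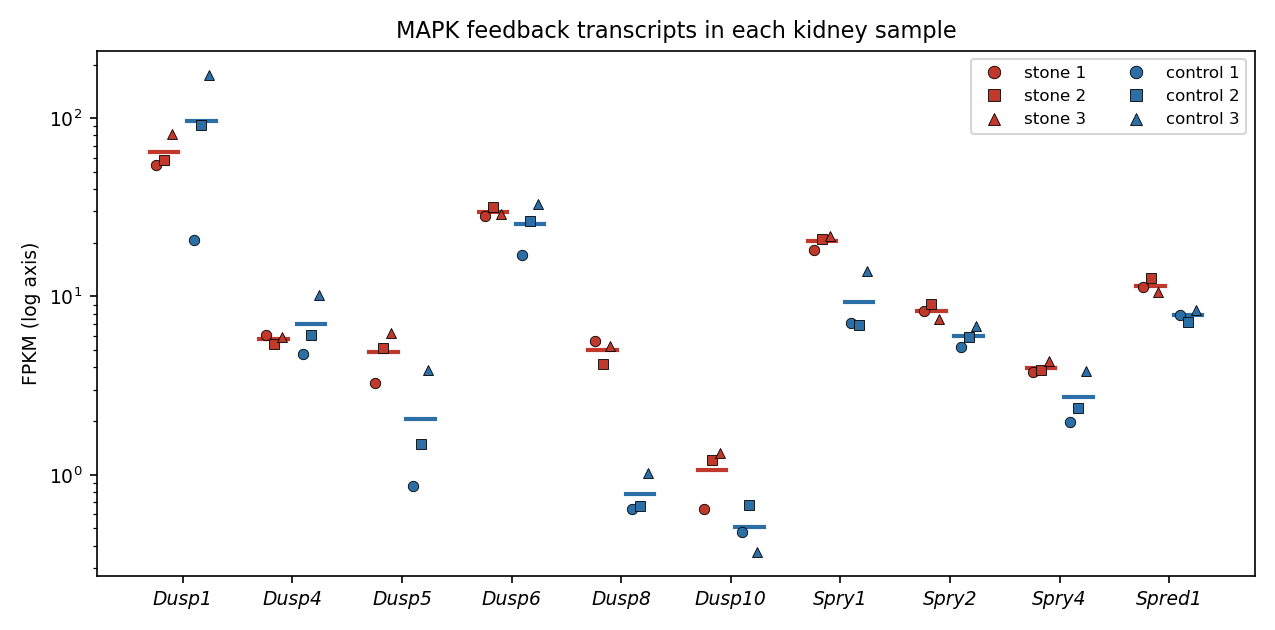
FPKM of the 10 genes on a log axis in each of the 3 stone and 3 control samples, with horizontal bars at group means. Dusp8, Spry1, Spry2 and Spred1 have every stone sample above every control sample, and Dusp1 spans 20.7 to 176 FPKM among controls.

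The FPKM sums of the samples lay between 609705 and 613885 in stone kidneys and between 711768 and 758514 in control kidneys, and scaling moved the typical gene. The proximal tubule marker Kap alone held 144880 to 175599 FPKM in control samples and 7250 to 13769 FPKM in stone samples. Equal FPKM sums therefore spread the Kap difference over all other genes. Median-of-ratios scaling shifted all differences by a median of -0.24 and called 22.5% of genes higher and 26.2% lower. Equal FPKM sums shifted them by 0.26 and called 68.5% higher and 6.47% lower, and quantile normalization shifted them by -0.26 and called 22.4% higher and 25.2% lower. Of the 9 tested feedback genes, 3 were called higher under median-of-ratios scaling (Dusp8, Spry1 and Spred1), 2 after quantile normalization (Dusp8 and Spry1) and 6 with equal sums (Spry4 in addition), and 0 were called lower under these scalings. Kidney markers were present in all samples, for example Umod at 936 to 1713 FPKM in stone kidneys and 1524 to 1749 FPKM in control kidneys.

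In the class of inducible nuclear phosphatases, stone and control groups overlapped for all 3 genes. Dusp1 (also called MKP-1, chromosome 17, 26505591 to 26508472, minus strand, GRCm38.p6), an immediate-early gene whose product inactivates p38, JNK and ERK, measured 54.5, 58.2 and 81.2 FPKM in stone samples 1 to 3 and 20.7, 91.9 and 176 FPKM in control samples 1 to 3. The stone values all lay inside the control range, between control 1 and control 2. Mean Dusp1 was 64.7 ± 14.5 FPKM in stone kidneys and 96.0 ± 77.5 FPKM in control kidneys (SD, n = 3 each), a difference of -0.13 on the log2 scale with a 95% interval from -1.73 to 1.47 (adjusted p = 0.882 by limma). The direction rested on single control libraries. Without control 1 the difference was -0.99 and Dusp1 was called lower (adjusted p = 0.0353 by limma), without control 3 it was 0.53 (adjusted p = 0.470 by limma), and it was also above 0 with equal FPKM sums (0.14). Without control 2 it was 0.062 (adjusted p = 0.957 by limma).

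Dusp4 (MKP-2, chromosome 8, 34807610 to 34819894, plus strand), whose product acts on ERK and JNK in the nucleus, measured 6.12, 5.41 and 5.91 FPKM in stone samples and 4.77, 6.07 and 10.3 FPKM in control samples. Control 3 alone stood well above the stone samples, and control 1 below them. The difference in Dusp4 was -0.18 with an interval from -0.71 to 0.35 (adjusted p = 0.513 by limma), and it was 0.092 without control 3 and 0.059 with equal FPKM sums.

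Dusp5 (chromosome 19, 53529145 to 53541809, plus strand), which encodes a nuclear phosphatase that acts on ERK alone and anchors it there, measured 3.26, 5.17 and 6.25 FPKM in stone samples and 0.87, 1.48 and 3.85 FPKM in control samples. Stone 1 lay below control 3, and the other stone samples lay above all controls. Dusp5 rose by 1.03 on the log2 scale with an interval from 0.19 to 1.87 (adjusted p = 0.0412 by limma). The Dusp5 call was lost under median-of-ratios scaling (0.84, adjusted p = 0.0796 by limma) and quantile normalization (0.68, adjusted p = 0.125 by limma), with no filter on low values (adjusted p = 0.0719 by limma), and without stone 2, stone 3, control 1 or control 2 (adjusted p from 0.102 to 0.121 by limma).

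Dusp6 (MKP-3, chromosome 10, 99263231 to 99267489, plus strand) is a standard readout of ERK activity, since ERK signalling switches on this cytoplasmic ERK phosphatase. It measured 28.5, 31.6 and 29.1 FPKM in stone samples and 17.1, 26.5 and 33.2 FPKM in control samples. The stone values were close together and fell between control 2 and control 3. The difference in Dusp6 was 0.25 with an interval from -0.24 to 0.75 (adjusted p = 0.326 by limma), and 0.01 under median-of-ratios scaling (adjusted p = 0.981 by limma). It was 9.8e-05 without control 1 (adjusted p = 0.999 by limma) and 0.46 without control 3 (adjusted p = 0.0668 by limma).

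Of the phosphatases selective for JNK and p38, Dusp8 rose under every setting in which it was tested. Dusp8 (chromosome 7, 142079487 to 142095907, minus strand) measured 5.60, 4.17 and 5.29 FPKM in stone samples and 0.64, 0.67 and 1.02 FPKM in control samples. The lowest stone value lay far above the highest control value. Dusp8 rose by 1.76 on the log2 scale with an SE of 0.14 (adjusted p = 0.000105 by limma), at percentile 98.2 of all tested genes by difference and position 391 by p. It was 1.60 under median-of-ratios scaling (adjusted p = 0.000155 by limma), and between 1.69 and 1.87 with any 1 sample left out. Because Dusp8 is low in control kidneys, the added pseudocount of 1 understates its change, which was 2.56 with a pseudocount of 0.1.

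Dusp10 (MKP-5, chromosome 1, 184034381 to 184075636, plus strand) had the lowest mean of the 10 feedback genes in both groups. It measured 0.64, 1.21 and 1.33 FPKM in stone samples and 0.48, 0.68 and 0.37 FPKM in control samples. Stone 1 lay below control 2, and the other stone samples lay above all controls. It was not tested among all genes. In an exact two-sided permutation test of the 6 samples the difference in Dusp10 was 0.44 with p = 0.2, where 3 against 3 samples allow no p below 0.1, and the fit with no filter gave an adjusted p of 0.0590 (limma).

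**Figure D2:**
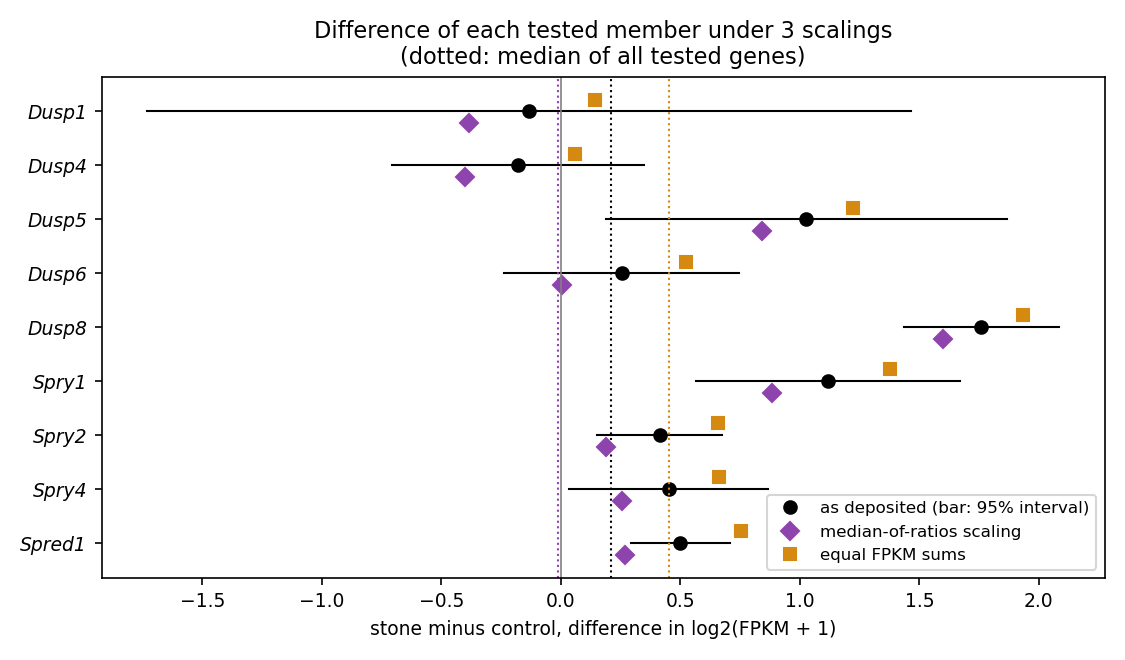
Difference between stone and control kidneys in log2(FPKM + 1) for the 9 tested genes, with 95% intervals as deposited, and the same difference after 2 other scalings. Dusp8 and Spry1 lie right of all 3 dotted medians under each scaling, and the interval of Dusp1 runs from -1.73 to 1.47.

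All 3 sproutys averaged higher in stone kidneys, and Spry1 and Spry2 passed the test. Spry1 (chromosome 3, 37639947 to 37644599, plus strand) measured 18.3, 21.1 and 22.0 FPKM in stone samples and 7.07, 6.96 and 13.9 FPKM in control samples. Every stone sample lay above every control, with control 3 apart from the other controls. Spry1 rose by 1.12 on the log2 scale with an SE of 0.23 (adjusted p = 0.00593 by limma), and by 0.88 under median-of-ratios scaling (adjusted p = 0.0135 by limma). Leaving out any 1 sample gave 0.97 to 1.42, and the call held each time.

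Spry2 (chromosome 14, 105891947 to 105896819, minus strand), which binds the ubiquitin ligase CBL and GRB2, measured 8.27, 9.12 and 7.52 FPKM in stone samples and 5.20, 5.96 and 6.85 FPKM in control samples. The groups did not overlap, but stone 3 and control 3 lay close to each other. Spry2 rose by 0.41 with an SE of 0.11 (adjusted p = 0.0159 by limma), and the call was lost under median-of-ratios scaling (0.19, adjusted p = 0.197 by limma) and quantile normalization (0.10, adjusted p = 0.483 by limma), without control 1 (adjusted p = 0.0518 by limma) and without stone 2 (adjusted p = 0.0602 by limma).

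Spry4 (chromosome 18, 38586247 to 38601347, minus strand), another inhibitor of receptor tyrosine kinase signalling to ERK, measured 3.79, 3.86 and 4.34 FPKM in stone samples and 1.99, 2.38 and 3.82 FPKM in control samples. Control 3 reached the stone values and the other controls did not. The difference in Spry4 was 0.45 with an interval from 0.04 to 0.87 and did not pass (adjusted p = 0.0616 by limma), and without control 3 it was 0.65 and passed (adjusted p = 0.00459 by limma).

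Spred1 (chromosome 2, 117121071 to 117182279, plus strand), which brings neurofibromin to the membrane to shut off RAS, measured 11.3, 12.6 and 10.6 FPKM in stone samples and 7.90, 7.24 and 8.35 FPKM in control samples. Each group was tight and they did not overlap. Spred1 rose by 0.50 with an SE of 0.09 (adjusted p = 0.00283 by limma), and by 0.27 under median-of-ratios scaling (adjusted p = 0.0355 by limma), but it did not pass after quantile normalization (0.22, adjusted p = 0.0785 by limma). Together, 4 of the 9 tested genes had all stone samples above all controls, against 49.8% of all tested genes, and 0 had all stone samples below all controls, against 16.5%.

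By mean level, the order in stone kidneys was Dusp1 (64.7 FPKM), Dusp6 (29.7), Spry1 (20.4), Spred1 (11.5), Spry2 (8.30), Dusp4 (5.81), Dusp8 (5.02), Dusp5 (4.89), Spry4 (4.00) and Dusp10 (1.06). Neighbours from Dusp4 to Spry4 had overlapping sample ranges, and the others did not. In control kidneys the order was Dusp1 (96.0 FPKM), Dusp6 (25.6), Spry1 (9.29), Spred1 (7.83), Dusp4 (7.03), Spry2 (6.00), Spry4 (2.73), Dusp5 (2.07), Dusp8 (0.777) and Dusp10 (0.510). Among controls only Dusp6 and Spry1, and Spry2 and Spry4, were neighbours whose ranges did not overlap. Dusp8 overlapped Dusp4 and Dusp5 in stone kidneys and was next to last in control kidneys.

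Within each sample the difference in log2(FPKM + 1) between members was taken for 8 pairs, and the pairs were compared between groups by exact two-sided permutation. For 5 pairs the groups did not overlap, which gives the smallest p that exact permutation of these samples allows, 0.1. Adjusted over the 8 pairs it was 0.16 (Benjamini-Hochberg). Several pairs share a member, and the share of all gene pairs without overlap was not computed. Of single tested genes, 49.8% had all stone samples above all controls and 16.5% all below. These 5 pairs did not overlap under the 3 other scalings either. The scaling factor of a sample largely cancels within a pair, so median-of-ratios scaling and equal FPKM sums test little here. Dusp8 stood 1.56 ± 0.41 log2 units above Dusp10 in stone kidneys and 0.23 ± 0.29 above it in control kidneys (SD, n = 3 each). Spry1 stood 1.20 ± 0.20 above Spry2 in stone kidneys and 0.50 ± 0.38 above it in control kidneys, and it stood 2.10 ± 0.09 above Spry4 in stone kidneys and 1.43 ± 0.19 above it in control kidneys (SD, n = 3 each). Dusp4 was 0.24 ± 0.44 above Dusp5 in stone kidneys and 1.45 ± 0.21 above it in control kidneys, and Dusp4 lay -2.17 ± 0.15 from Dusp6 in stone and -1.74 ± 0.19 in control kidneys (SD, n = 3 each).

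For the other 3 pairs the groups overlapped. Dusp1 over Dusp5 differed by -1.16 between stone and control kidneys (exact permutation p = 0.2, adjusted 0.267), Dusp1 over Dusp4 by 0.05 (exact permutation p = 1) and Spry2 over Spry4 by -0.04 (exact permutation p = 0.7), which turned to 0.032 after quantile normalization. Spry2 over Spry4 was the steadiest, with sample values from 0.67 to 1.06 in stone kidneys and from 0.70 to 1.05 in control kidneys.

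**Figure D3:**
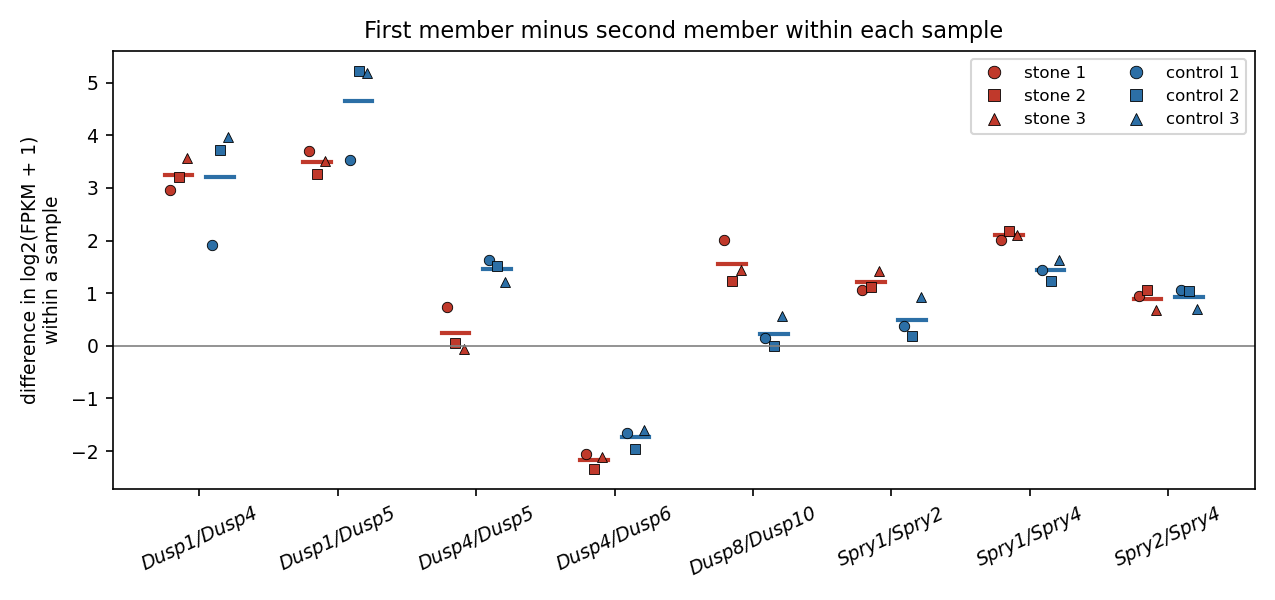
Difference in log2(FPKM + 1) between the first and second member of 8 pairs within each sample, stone beside control, with bars at group means. Dusp8/Dusp10 averages 1.56 in stone and 0.23 in control samples, and Spry2/Spry4 averages 0.89 in stone and 0.93 in control samples.

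The spread of Dusp1, Dusp4, Dusp5, Dusp6 and Spry4 among control kidneys went together with that of immediate-early transcripts. Dusp8 and Dusp10 had no wider a range in control than in stone kidneys, though Dusp8 had the same order of controls (0.64, 0.67 and 1.02 FPKM). Immediate-early genes are genes that cells switch on within minutes of a stimulus, including the handling of tissue. The 15 genes of that list summed to 427 to 593 FPKM in stone samples, and to 101, 658 and 943 FPKM in control samples 1 to 3. Fos, which encodes an AP-1 subunit, measured 15.1, 17.1 and 25.8 FPKM in stone samples and 0.92, 33.4 and 68.9 FPKM in control samples. Nr4a1, an inducible nuclear receptor gene, measured 34.4, 36.5 and 39.9 FPKM in stone samples and 2.19, 33.1 and 73.8 FPKM in control samples. Both were picked out after their values were seen.

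Control 1 was lowest and control 3 highest of the controls in 13 of these 15 genes and in 7 of the 10 feedback genes (all but Dusp10, Spry1 and Spred1), against 14.4% of all tested genes. The lists were chosen with earlier results of these data known, so these counts describe the samples and are not a test. Within stone samples, the range of log2(FPKM + 1) was 0.57 for Dusp1, 0.77 for Dusp5, 0.15 for Dusp4, 0.15 for Dusp6 and 0.25 for Spry1. Within control samples it was 3.02 for Dusp1, 1.37 for Dusp5, 0.96 for Dusp4, 0.92 for Dusp6 and 0.90 for Spry1, each above percentile 98 of all tested genes by range among controls. Spry4 (0.16 in stone and 0.69 in control samples) and Spry2 (0.25 in stone and 0.34 in control samples) also had wider ranges in controls. The range was no wider in controls for Dusp8 (0.35 in stone and 0.30 in control samples) and Spred1 (0.23 in stone and 0.18 in control samples). How far the handling of tissue contributes to the differences in Dusp1, Dusp4, Dusp5, Dusp6 and the sproutys was not tested. Values without control 1 and without control 3 stand beside each gene where they change the call or direction.

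**Figure D4:**
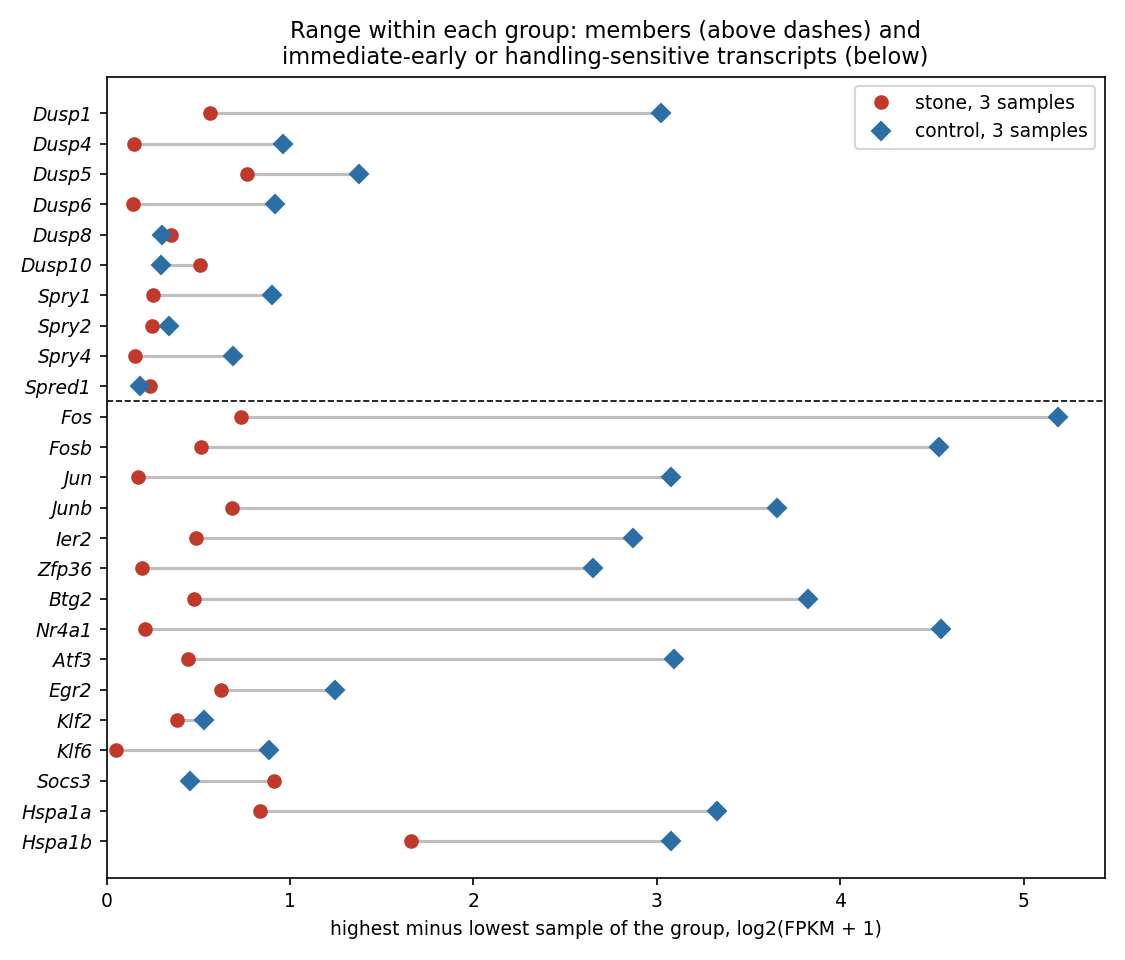
Highest minus lowest sample within the stone group and within the control group in log2(FPKM + 1), for the 10 feedback genes and 15 immediate-early or handling-sensitive genes. Dusp1 spans 0.57 in stone and 3.02 in control samples, close to Jun in control (3.08) but not in stone samples (0.17). Dusp8, Dusp10 and Spred1 have like or wider ranges in stone samples.

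Other dual-specificity phosphatases changed in both directions. Of 15, 13 were tested, with a median difference of 0.18. As deposited 5 rose and 3 fell, against 43.5% and 13.9% of all tested genes. Under median-of-ratios scaling 4 were higher and 5 lower, against 22.5% and 26.2%. Dusp14 and Dusp3, small phosphatases without the MAP kinase docking domain, rose to 28.5 ± 2.07 and 33.2 ± 1.67 FPKM in stone kidneys, against 11.3 ± 1.54 and 14.8 ± 2.19 FPKM in control kidneys (SD, n = 3 each; adjusted p = 0.000141 and 0.000197 by limma). Dusp23, another small phosphatase, fell to 7.19 ± 0.216 FPKM in stone kidneys, against 12.4 ± 0.429 FPKM in control kidneys (adjusted p = 0.000187 by limma). Dusp16, picked out after its values were seen, averaged 14.1 ± 0.609 FPKM in stone kidneys and 7.66 ± 0.543 FPKM in control kidneys. That was a rise of 0.80 (adjusted p = 0.000205 by limma), so a rise was not particular to Dusp8 among these phosphatases.

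Other sprouty, SPRED and receptor-level inhibitors were higher in most tested genes as deposited, by small amounts, and with equal FPKM sums. Under median-of-ratios scaling and after quantile normalization most were not called. Of 16, 14 were tested, and 12 rose and 0 fell as deposited, against 43.5% and 13.9% of all tested genes. With equal FPKM sums 13 rose and 0 fell, against 68.5% and 6.47%. Under median-of-ratios scaling 4 rose, against 22.5% of all tested genes, and after quantile normalization 2 rose, against 22.4%. These last counts are near or below the background. Spred3, the third SPRED gene, averaged 2.14 ± 0.106 FPKM in stone kidneys and 0.96 ± 0.07 FPKM in control kidneys (SD, n = 3 each), a rise of 0.68 (adjusted p = 0.00151 by limma). Rasa1, a RAS GTPase-activating protein gene, rose by 0.40 (adjusted p = 0.0018 by limma), and that call was lost under median-of-ratios scaling (adjusted p = 0.0740 by limma) and quantile normalization (adjusted p = 0.217 by limma). The median of the list was 0.41, against 0.21 for all tested genes.

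Genes of the ERK cascade itself, from adaptors to kinases, differed by -0.31 to 1.30 on the log2 scale, with a median of 0.36, against 0.21 for all tested genes. Of 21, all tested, 13 rose and 1 fell as deposited, against 43.5% and 13.9% of all tested genes. Under median-of-ratios scaling 7 were higher and 5 lower, against 22.5% and 26.2%. Rras and Nras, which encode RAS family GTPases, rose by 1.30 and 0.76 on the log2 scale (adjusted p = 2.37e-05 and 0.000402 by limma). Braf, the RAF kinase gene, fell by 0.31 (adjusted p = 0.0212 by limma), with 5.95 ± 0.229 FPKM in stone kidneys and 7.65 ± 0.811 FPKM in control kidneys (SD, n = 3 each). With equal FPKM sums the Braf difference was -0.07 and not called (adjusted p = 0.566 by limma), and it was also lost without stone 1 or 3 or control 1 or 3 and with the replicate block (adjusted p from 0.0502 to 0.0733 by limma).

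Of the JNK and p38 cascade, 17 of 18 genes were tested. As deposited 9 rose and 1 fell, against 43.5% and 13.9% of all tested genes, so the share that rose is near the background. Under median-of-ratios scaling 3 were higher and 4 lower, against 22.5% and 26.2%. Map3k1, a kinase at the head of the JNK branch, rose to 18.5 ± 2.23 FPKM in stone kidneys, against 5.89 ± 1.09 FPKM in control kidneys (SD, n = 3 each; adjusted p = 0.000173 by limma). Mapkapk2, a kinase activated by p38, rose by 0.62 (adjusted p = 0.00025 by limma). Map2k6, an activator of p38, fell by 0.71 (adjusted p = 0.0019 by limma).

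Transcripts that ERK signalling is known to induce had the largest median difference of these lists, at 0.87, against 0.21 for all tested genes. Of 15, 14 were tested, and 9 rose and 1 fell, against 43.5% and 13.9% of all tested genes. Under median-of-ratios scaling 7 rose and 2 fell, against 22.5% and 26.2%. The 15 genes summed to 427, 470 and 476 FPKM in stone samples 1 to 3 and to 139, 214 and 362 FPKM in control samples 1 to 3, the same order of controls as for the immediate-early genes. Egr1, an immediate-early transcription factor gene picked out after its values were seen, measured 28.0, 39.8 and 41.2 FPKM in stone samples and 3.02, 42.9 and 136 FPKM in control samples. The median of the list was 0.68 without control 1 (8 higher, 2 lower) and 1.30 without control 3 (9 higher, 1 lower), and the part of the control spread in these differences was not tested. Plaur, the urokinase receptor gene, averaged 19.5 ± 4.42 FPKM in stone kidneys and 1.94 ± 0.259 FPKM in control kidneys, and Ccnd1, the cyclin D1 gene, 148 ± 15.0 FPKM in stone kidneys and 48.2 ± 11.0 FPKM in control kidneys (SD, n = 3 each; adjusted p = 3.36e-05 and 0.000265 by limma). Etv1, an ETS factor gene, fell by 0.86 (adjusted p = 0.00273 by limma). Fosl1, picked out after its values were seen and too low to be tested, measured 1.27, 1.46 and 1.41 FPKM in stone samples and was listed at 0 in all 3 control samples. Dusp4, Dusp6 and Spry4, often read together with such transcripts as ERK output, did not pass. The feedback genes Dusp5, Dusp8, Spry1, Spry2 and Spred1 passed as deposited, with values and limits given above.

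A list of receptor tyrosine kinase genes and the co-receptor gene Gfra1 moved both ways. As deposited 6 of 14 tested genes were higher and 4 lower, against 43.5% and 13.9% of all tested genes. Under median-of-ratios scaling 5 were higher and 5 lower, against 22.5% and 26.2%. Egfr and Erbb2, growth factor receptor genes of the tubule, rose by 1.17 and 0.58 (adjusted p = 5.08e-05 and 0.000376 by limma). Gfra1, the GDNF co-receptor gene, fell to 0.663 ± 0.420 FPKM in stone kidneys, against 2.25 ± 0.378 FPKM in control kidneys (SD, n = 3 each; adjusted p = 0.00586 by limma). Of the 15 immediate-early and handling-sensitive genes 3 rose and 0 fell, as deposited and under median-of-ratios scaling, but without control 1 the list had 3 higher and 5 lower and a median of -0.39, against 0.69 with all samples. Socs3, a feedback inhibitor of cytokine signalling, rose by 4.17 and Klf6, a zinc finger factor gene, by 1.96 (adjusted p = 3.11e-05 and 0.000286 by limma).

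**Figure D5:**
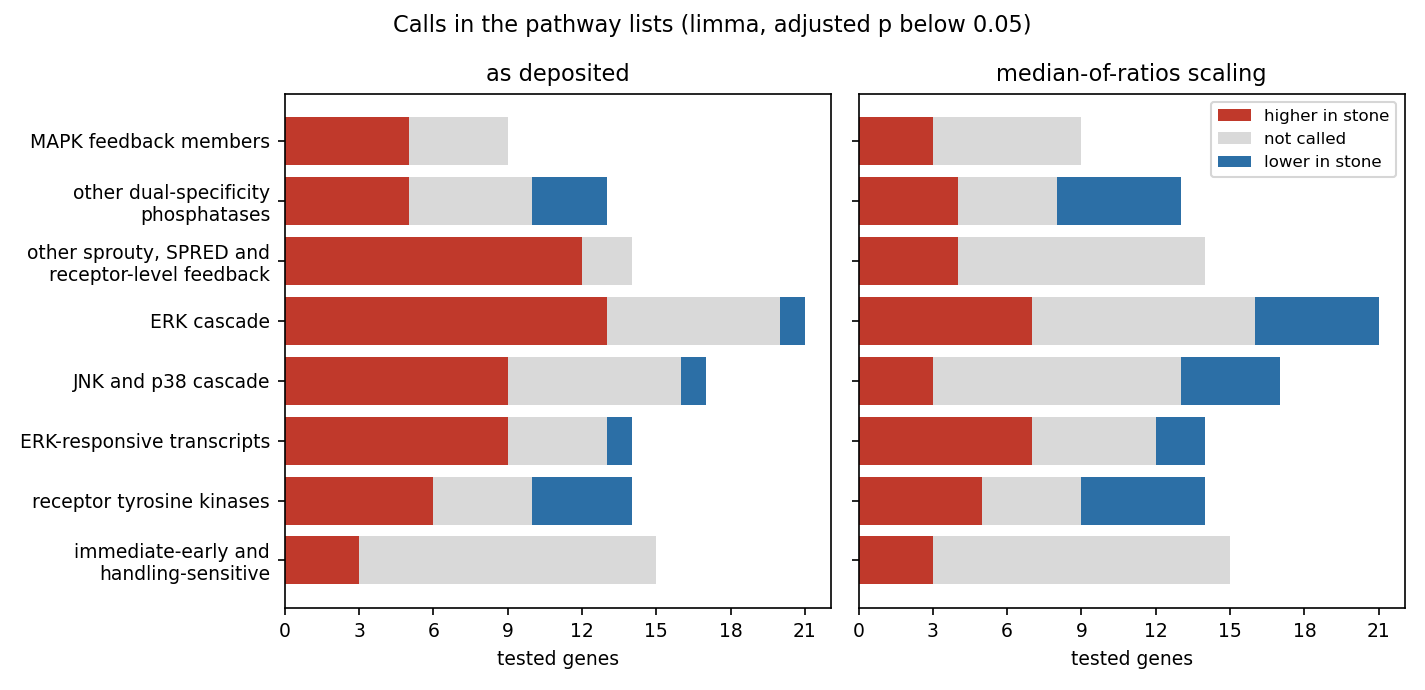
Number of tested genes called higher, not called or called lower in stone kidneys for the feedback members and 7 other lists, as deposited and under median-of-ratios scaling. Of the members, 5 of 9 are higher as deposited and 3 of 9 after that scaling, with 0 lower in each.

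Among all tested genes, the 3 nearest to Dusp8 by distance between centred log2(FPKM + 1) values over the 6 samples were Mab21l4 (distance 0.20), Gm42031 (0.24) and Maff (0.25), the gene of a small MAF transcription factor. Maff measured 10.4, 10.2 and 11.4 FPKM in stone samples and 2.10, 2.45 and 2.93 FPKM in control samples.

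Cell type markers differed between the groups beside these results, where 43.5% of all tested genes rose and 13.9% fell. Summed macrophage markers lay at 123 to 228 FPKM in stone and 51.2 to 56.6 FPKM in control samples (5 of 6 genes rose), and fibroblast and pericyte markers at 89.7 to 151 FPKM in stone and 30.5 to 40.6 FPKM in control samples (5 of 5 rose). Endothelial markers summed to 78.1 to 130.0 FPKM in stone and 49.0 to 85.5 FPKM in control samples (3 of 5 rose), neutrophil markers to 19.8 to 29.7 FPKM in stone and 2.14 to 5.48 FPKM in control samples (3 of 3 tested rose), and markers of dividing cells to 18.6 to 25.2 FPKM in stone and 2.48 to 2.77 FPKM in control samples (4 of 4 rose). Of 6 proximal tubule markers 4 fell and 0 rose, and their sum, mostly Kap, was 9853 to 15800 FPKM in stone and 148022 to 179008 FPKM in control samples. Podocyte markers summed to 62.6 to 78.1 FPKM in stone and 39.8 to 56.8 FPKM in control samples (3 of 4 rose), collecting duct markers to 200 to 408 FPKM in stone and 158 to 169 FPKM in control samples (2 of 4 rose and 1 fell), and those of thick limb and distal tubule to 1393 to 2207 FPKM in stone and 2076 to 2439 FPKM in control samples (2 of 4 fell). T cell markers were too low to test, at sums of 0.90 to 1.01 FPKM in stone and 1.03 to 1.30 FPKM in control samples, and the neutrophil marker Retnlg was at 0 in at least 1 sample. The part of these markers in the differences of the feedback genes was not tested. Transcripts annotated on the opposite strand overlap Dusp5, Dusp8, Spry1 and Spry4 in GENCODE M21, none of them a row of the table, so the values of these 4 genes are uncertain to that extent.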

How the data were processed

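RNA of 6 kidney samples was made into libraries with dUTP in the second strand, per the labels' protocols, and HISAT2 2.0.4 was run with the build GRCm38.p6, per the notes on processing by the submitters. The deposited FPKM values were made by the authors, 1 column per sample, per the file headers, and 0 columns belong to other samples. For the quantifier, the annotation and the use of strand, the sources used here give nothing. FPKM hold no counts, so depth is unknown and no counting intervals are given.

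The 12319 of 17933 genes that averaged 1 FPKM or more were compared on log2(FPKM + 1) with limma 3.58.1 in R 4.3.3 (lmFit, eBayes with trend), two-sided, with p adjusted over all of them (Benjamini-Hochberg) and called below 0.05. Differences are stone minus control and understate the change of low genes. Member pairs were compared by exact permutation. The scripts were tested on simulated data. Gene positions come from RefSeq and overlaps from GENCODE M21, matched by symbol for 10 of 10 genes.

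The members and lists were chosen with earlier results of these data known. Named genes are the members, of each other list the 2 risen genes and 1 fallen gene with the smallest p, and the 3 nearest to the member with the largest difference. A further list of cell type markers is not reported here. Alternatives changed the pseudocount (0.1), the filter (none, or a mean of 5 FPKM), the scaling, a replicate block and the samples left out.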

Additional observations from a re-analysis of the deposited data

How the results depend on the processing

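Depth is unknown, so no limit of detection can be given, and 3 samples per group limit every test. Over all tested genes, 5356 were higher and 1711 lower as deposited, 8440 and 797 with equal FPKM sums, 2762 and 3108 after quantile normalization, and 2776 and 3222 under median-of-ratios scaling. Of the feedback genes, 5 were higher as deposited, 3 under median-of-ratios scaling, 2 after quantile normalization (Dusp8 and Spry1) and 3 with a mean of at least 5 FPKM, where Dusp5, Dusp8 and Spry4 were not tested. Leaving out 1 sample gave 3 to 6 higher and 0 to 1 lower, with 3 higher without stone 2 or control 1. In the 7 other lists together, 57 genes were higher and 10 lower as deposited, 33 genes were higher and 21 lower under median-of-ratios scaling, 32 and 19 after quantile normalization, and 76 and 6 with equal FPKM sums, and leaving out 1 sample gave 47 to 58 higher and 9 to 15 lower. With 1 sample left out, all genes gave 4173 to 5269 higher and 1355 to 1686 lower. The direction of Dusp1 and Dusp4 turned with equal FPKM sums, to 0.14 and 0.059, and with 1 sample left out ranged from -0.99 to 0.53 and from -0.39 to 0.092. Dusp1 over Dusp4 ranged from -0.60 to 0.43 and Spry2 over Spry4 from -0.15 to 0.073, while the other 6 pairs kept their direction with 1 sample left out and with a pseudocount of 0.1. With the 3 other scalings, added for the pairs after seeing the data, Spry2 over Spry4 turned to 0.032 after quantile normalization and the other pairs kept their direction. Under median-of-ratios scaling and equal FPKM sums this was nearly fixed in advance, since a sample's factor largely cancels within a pair. Apart from the scaling and the samples themselves, the cause was not tested.

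The labels do not say that samples with the same replicate number share anything. The correlation of their deviations from the group means was 0.007, -0.22 and -0.04 for numbers 1, 2 and 3. Such a correlation cannot show whether single genes share more. With the replicate block the SE of Dusp5 was 0.17, against 0.36 without it, and that of Dusp1 was 0.45, against 0.68. The SE of Spry2 and Spred1 grew. With the replicate block, 6 feedback genes were higher, since Spry4 passed (0.45, limma, adjusted p = 0.0390), 0 were lower, and 4861 of all tested genes were higher and 1517 lower.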
